A study of Mus musculus with 6 samples.

Results

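Transcription factors of the inner retina were followed in whole retinas of DBA/2J mice through 9 genes: Pax6, Tfap2a, Tfap2b, Lhx1, Onecut1, Onecut2, Prox1, Vsx1 and Lhx4. Every probe set whose only gene in the array's annotation was one of these was taken, which gave 24 of 45037 probe sets, or 9 of 18193 genes. DBA/2J is an inbred strain that develops pigmentary disease of the iris with age, followed by raised intraocular pressure and loss of ganglion cells. All 6 animals were female, and the labels name no added allele, agent or treatment. The 3 younger ones, 3 months old, had normal pressure, and the 3 older ones, 8 months old, were picked for elevated pressure. Each array held RNA of 1 retina from 1 animal, on Affymetrix mouse arrays. Younger eyes had a last pressure reading of 17.5 ± 1.99 mmHg, and older eyes one of 27.4 ± 2.67 mmHg (SD, n = 3 each). Age and pressure therefore cannot be told apart, and no other strain was on the arrays. The comparison asks which of these transcripts differ between retinas before and after the pressure has risen.

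The inner retina holds the interneurons that shape the signal between photoreceptors and ganglion cells. Horizontal cells feed back onto photoreceptor terminals, bipolar cells carry the signal inward, and amacrine cells modulate it in the inner plexiform layer. The genes studied encode DNA-binding proteins that set the fate of these cells in the embryo, and several stay on in the adult. Pax6, a paired-domain and homeodomain factor, is the master regulator of eye formation and in the mature retina marks amacrine, horizontal and ganglion cells. Tfap2a and Tfap2b encode AP-2 alpha and AP-2 beta and are found in amacrine cells, with a role in horizontal cell formation. Lhx1, a LIM-homeodomain factor, marks horizontal cells and is needed for their placement, and the cut-homeodomain genes Onecut1 and Onecut2 act upstream in their formation. Prox1, a divergent homeodomain factor, is present in horizontal cells, AII amacrine cells and some bipolar cells, and outside the retina in lens fibres and lymphatic endothelium. Vsx1 and Lhx4 are best known from cone bipolar cells, so the group reaches beyond amacrine and horizontal cells.

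Values were on the log2 scale, so a difference of 1 is a doubling. Of the 24 probe sets, 14 passed the filter used for testing, in which the third highest of the 6 values had to reach 4 without regard to age. They covered 8 of the 9 genes. The other 10 are given as levels and were not tested in the main model. Levels of different probe sets were not set against each other, because probes differ in how well they bind.

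The group held a trio whose brightest probe sets all read higher in the 8-month retinas with no overlap between ages: Pax6, Tfap2a and Tfap2b. The brightest probe set of Onecut2 was lower without overlap, and those of the other 4 tested genes overlapped. Taken by its brightest tested probe set, 6.05% of all 11219 genes were higher without overlap and 16.9% lower. None of the trio passed the test over all probe sets, as given below, and it was singled out after its values were seen. Their upstream sequences are shown because these 3 genes read higher together. They are the 250 bases before each RefSeq transcription start of GRCm38.p6, which is C57BL/6J sequence and not DBA/2J. Capitals mark matches, on either strand, to 3 motifs: TAATTA, a core bound by many homeodomain proteins, GCCNNNGGC, the palindrome bound by AP-2 proteins, and TGACGTCA, the cAMP response element.
Pax6, chr2:105668646-105668895, plus strand: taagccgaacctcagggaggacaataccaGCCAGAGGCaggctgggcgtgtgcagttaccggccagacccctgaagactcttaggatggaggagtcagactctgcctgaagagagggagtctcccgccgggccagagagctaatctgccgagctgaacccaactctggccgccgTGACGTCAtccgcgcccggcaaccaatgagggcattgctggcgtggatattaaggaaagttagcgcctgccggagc
Pax6, chr2:105682213-105682462, plus strand: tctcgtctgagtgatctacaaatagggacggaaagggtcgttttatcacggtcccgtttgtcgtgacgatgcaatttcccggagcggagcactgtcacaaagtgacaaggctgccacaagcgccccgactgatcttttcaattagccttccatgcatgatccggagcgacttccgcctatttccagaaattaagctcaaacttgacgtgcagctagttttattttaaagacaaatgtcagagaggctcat
Tfap2a, chr13:40734921-40735170, minus strand: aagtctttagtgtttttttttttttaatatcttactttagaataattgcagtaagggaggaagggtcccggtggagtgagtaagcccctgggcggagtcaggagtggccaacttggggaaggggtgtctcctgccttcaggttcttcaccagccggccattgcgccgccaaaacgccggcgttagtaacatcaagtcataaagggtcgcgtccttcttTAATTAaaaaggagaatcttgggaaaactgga
Tfap2a, chr13:40733796-40734045, minus strand: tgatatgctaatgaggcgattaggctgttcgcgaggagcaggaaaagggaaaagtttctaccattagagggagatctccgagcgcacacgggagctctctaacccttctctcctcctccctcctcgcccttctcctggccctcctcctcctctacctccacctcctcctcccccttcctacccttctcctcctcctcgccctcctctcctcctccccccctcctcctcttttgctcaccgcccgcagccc
Tfap2b, chr1:19211804-19212053, plus strand: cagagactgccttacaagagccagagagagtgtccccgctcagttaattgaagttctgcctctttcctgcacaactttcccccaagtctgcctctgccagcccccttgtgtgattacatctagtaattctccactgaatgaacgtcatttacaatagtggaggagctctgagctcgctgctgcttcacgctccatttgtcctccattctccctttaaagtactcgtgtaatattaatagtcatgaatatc

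The first Pax6 window held 1 AP-2 match, GCCAGAGGC, from 221 to 213 bases before the start, and 1 cAMP response element from 76 to 69 bases before it. The first Tfap2a window held 1 TAATTA match, from 32 to 27 bases before the start. No match overlapped another. The second Pax6 window, the second Tfap2a window and the Tfap2b window held none of the 3 motifs. Among all 32851 promoter windows of the same length, 4.84% held TAATTA, 13.7% the AP-2 palindrome and 1.55% the cAMP response element. Windows of 8 of the 9 genes were used, 11 windows in all. Those of Lhx1, Lhx4, Onecut1, Prox1 and Vsx1 held none of the 3 motifs. No window of Onecut2 was read, and that gene was named only. These matches describe the letters and were not tested against the expression values.

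Pax6 was read by 5 probe sets, of which 3 passed the filter. The brightest, 1419271_at, read 9.41, 9.42 and 9.39 in the 3-month retinas and 9.67, 9.62 and 9.61 in the 8-month retinas. All older retinas lay above all younger ones, and the spread within each age was a fraction of the gap. The log2 difference was 0.23 ± 0.07 (SE; 95% interval 0.06 to 0.40), or 1.17-fold, and it did not pass over all probe sets (limma, unadjusted p = 0.0158, Benjamini-Hochberg adjusted p = 0.269). The other probe sets of the gene differed by less. Probe set 1452526_a_at, which reads several transcripts of Pax6, gave 6.39, 6.24 and 6.19 at 3 months and 6.17, 6.42 and 6.18 at 8 months. Its ages overlapped fully, with a log2 difference of -0.02 ± 0.10 (SE; limma adjusted p = 0.954). The less specific 1425960_s_at lay at the filter, from 3.92 to 4.11 at 3 months and from 4.03 to 4.35 at 8 months. The remaining pair, 1437816_at and 1456342_at, stayed below the filter, the first at 3.55 to 3.63 and 3.64 to 3.72, without overlap, and the second at 2.55 to 2.73 and 2.63 to 2.91.

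Tfap2b was read by a bright and a dimmer probe set, both of them above the filter and higher at 8 months. The bright one, 1435670_at, read 9.15, 9.23 and 9.06 in the 3-month retinas and 9.31, 9.47 and 9.45 in the 8-month retinas. The ages did not overlap, 8-month retina 1 lying closest to the younger group. The log2 difference was 0.26 ± 0.09 (SE; 95% interval 0.06 to 0.47), or 1.20-fold, without passing (limma, unadjusted p = 0.0196, adjusted p = 0.278). The dimmer one, 1423340_at, read 7.23, 6.40 and 6.66 at 3 months and 7.08, 7.28 and 7.08 at 8 months. Its difference of 0.38 ± 0.20 (SE; 95% interval -0.10 to 0.87) was the largest of the group, but 3-month retina 1 stood among the older retinas (limma adjusted p = 0.418). The difference was 0.617 without 3-month retina 1 and 0.20 without 3-month retina 2, and neither passed (limma adjusted p = 0.307 and 0.572).

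Tfap2a had 3 probe sets, all above the filter and all higher at 8 months. The brightest, 1426048_s_at, read 9.02, 8.93 and 9.03 at 3 months and 9.19, 9.24 and 9.03 at 8 months. The ages parted by less than 0.01, the highest younger retina reading 9.029 and the lowest older one 9.033. The log2 difference was 0.16 ± 0.09 (SE; 95% interval -0.05 to 0.37; limma adjusted p = 0.429). This probe set carries the suffix of probes that can match other transcripts. The specific 1421996_at repeated the order, at 8.92, 8.97 and 8.97 against 9.09, 9.16 and 9.001, with a difference of 0.13 ± 0.08 (SE; limma adjusted p = 0.467). The third, 1421995_at, ran from 6.74 to 6.999 at 3 months and from 6.74 to 7.21 at 8 months, with full overlap and a difference of 0.08 ± 0.14 (SE). In all 3, 8-month retina 2 was the highest of the 6 retinas.

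**Figure D1:**
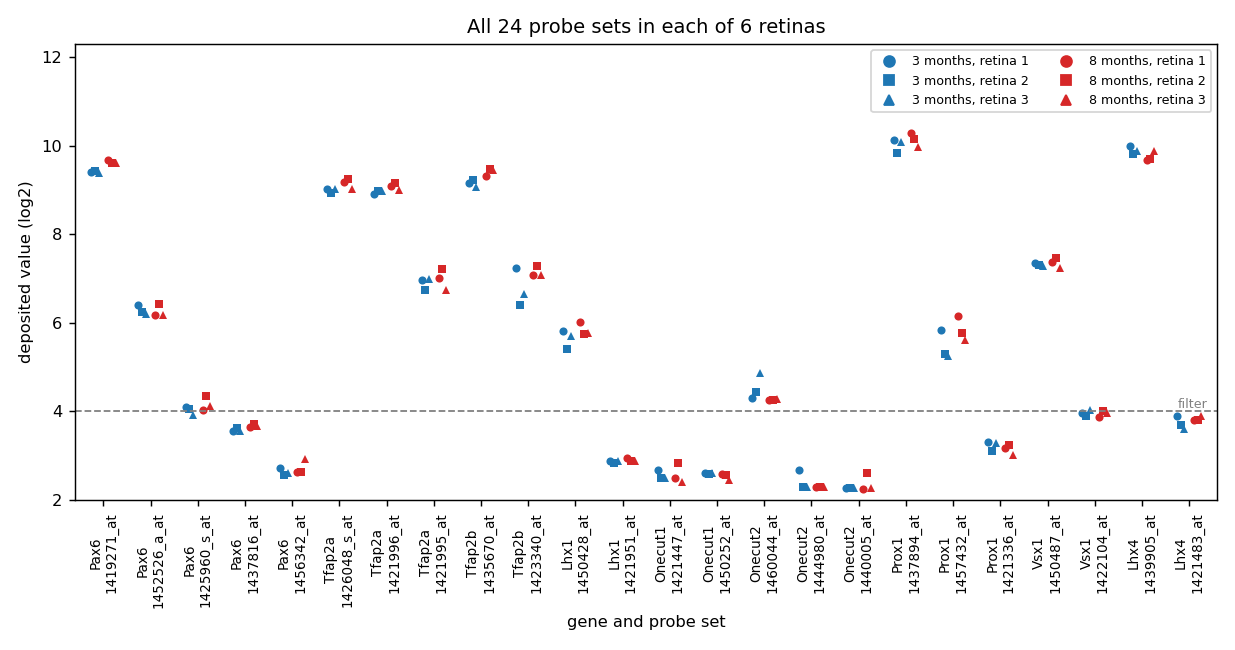
Deposited log2 values of all 24 probe sets of the 9 genes in each of 6 retinas (blue, 3 months; red, 8 months; marker shape, retina number), with the filter at 4 as a dashed line. The 14 probe sets above the filter cover 8 genes, and both Onecut1 probe sets lie well below it.

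Horizontal cell genes did not share a direction: the tested Lhx1 probe set was higher at 8 months and that of Onecut2 lower, and neither passed. By 1450428_at, Lhx1 read 5.81, 5.42 and 5.69 in younger retinas, against 6.02, 5.76 and 5.76 in older ones. The ages overlapped, since 3-month retina 1 lay above 8-month retinas 2 and 3. The difference was 0.21 ± 0.13 (SE; 95% interval -0.10 to 0.51; limma adjusted p = 0.483). It was 0.095 without 3-month retina 2 and 0.118 without 8-month retina 1. A further Lhx1 probe set stayed between 2.83 and 2.94 in all 6 retinas, little above the lower quartile of all probe sets, which lay between 2.56 and 2.59 in the 6 arrays.

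Onecut1 read near the floor of the method. Its probe sets gave 2.40 to 2.83 and 2.45 to 2.61 over the 6 retinas, and GCRMA presses weak signals toward such a floor. Onecut2 was read above the filter by 1 of 3 probe sets, 1460044_at, which gave 4.29, 4.44 and 4.87 in younger retinas, against 4.25, 4.26 and 4.28 in older ones. All older retinas lay below all younger ones, but 3-month retina 1 was above the highest older retina by less than 0.02, and 3-month retina 3 stood apart. The log2 difference was -0.27 ± 0.15 (SE; 95% interval -0.625 to 0.08; limma adjusted p = 0.425) and -0.10 without 3-month retina 3. The other Onecut2 probe sets read between 2.25 and 2.67.

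Prox1, shared by horizontal cells, AII amacrine cells and bipolar cells, was read by 2 probe sets above the filter. The brighter, 1437894_at, stood at 10.13, 9.83 and 10.09 at 3 months and at 10.29, 10.15 and 9.98 at 8 months. The ages overlapped, with a difference of 0.12 ± 0.12 (SE; 95% interval -0.17 to 0.40; limma adjusted p = 0.654). The dimmer, 1457432_at, read 5.85, 5.29 and 5.25 at 3 months and 6.16, 5.77 and 5.61 at 8 months. Here 3-month retina 1 lay above 8-month retinas 2 and 3, and the difference was 0.38 ± 0.20 (SE; 95% interval -0.10 to 0.86; limma adjusted p = 0.416). Both had their highest value in 8-month retina 1, and without that retina the differences were 0.045 and 0.22. The third probe set stayed at 3.02 to 3.31.

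The cone bipolar genes differed little. Vsx1, a paired-like homeodomain gene, read 7.35, 7.30 and 7.27 at 3 months and 7.38, 7.46 and 7.24 at 8 months by 1450487_at. The ages overlapped fully, with a difference of 0.05 ± 0.09 (SE; 95% interval -0.15 to 0.25; limma adjusted p = 0.803). Lhx4, a LIM-homeodomain gene, read 9.99, 9.81 and 9.89 at 3 months and 9.68, 9.69 and 9.89 at 8 months by 1439905_at. 8-month retinas 1 and 2 lay below all younger ones, and 8-month retina 3 lay among them, for a difference of -0.14 ± 0.10 (SE; 95% interval -0.37 to 0.09; limma adjusted p = 0.510). Their second probe sets stayed near the filter, Vsx1 at 3.87 to 4.03 and Lhx4 at 3.61 to 3.89.

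**Figure D2:**
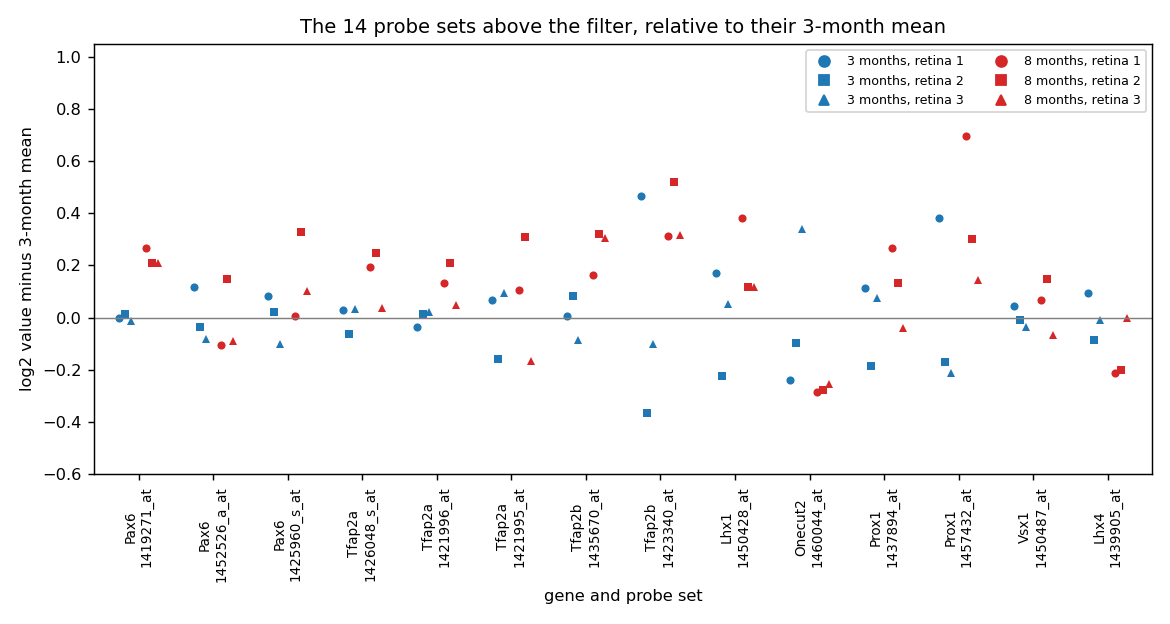
Log2 value minus the mean of the 3-month retinas for the 14 probe sets above the filter (blue, 3 months; red, 8 months; marker shape, retina number). The ages are separate for 1 Pax6, 2 Tfap2a and 1 Tfap2b probe sets, higher at 8 months, and for 1 Onecut2 probe set, lower at 8 months.

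Across the 14 tested probe sets, 0 passed after adjustment (limma, Benjamini-Hochberg), and 2 had an unadjusted limma p under 0.05. Over all 20973 tested probe sets 0.00477% passed, which is 1 probe set, and 14.9% had an unadjusted p under 0.05, so the 2 of 14, or 14.3%, lie at the background. By direction, both were higher at 8 months, where 4.63% of all probe sets were called higher in this way and 10.3% lower. The ages did not overlap in 4 probe sets that were higher at 8 months, 28.6%, and in 1 that was lower, 7.14%. Over all tested probe sets those shares were 6.89% and 14.9%. The 4 belong to only 3 genes, and probe sets of 1 gene are not independent.

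The differences of the group leaned upward, while those of the array as a whole leaned downward. Of the 14, 11 were above 0 and 3 below, with a median log2 difference of 0.14, against 40.6% above 0 and a median of -0.04 over all tested probe sets. The downward lean of the whole array depended on how the arrays were scaled: 40.6% of all probe sets were above 0 as deposited, 48.7% after quantile normalization and 58.8% after median centring. Of the 14, 12 were above 0 under both of those scalings. In the main model every 95% interval lay between -0.625 and 0.867. Changes of 2-fold or more in either direction thus lie outside the intervals of all 14 probe sets in that model. In a whole retina, fewer cells of a type and less RNA per cell cannot be told apart.

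**Figure D3:**
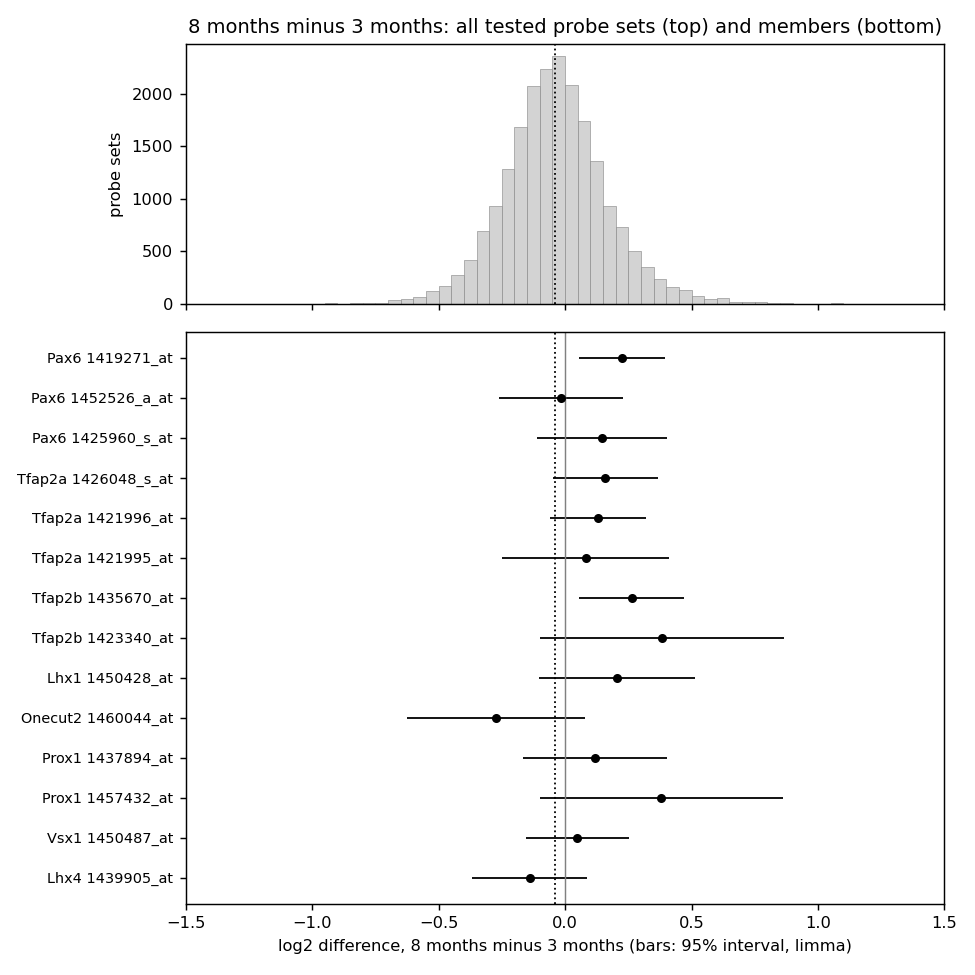
Log2 difference between 8 and 3 months for all 20973 tested probe sets (top, histogram, with values beyond 1.5 placed in the end bins) and for the 14 probe sets of the group (bottom, points with 95% intervals from limma). The dotted line is the median of all tested probe sets, -0.04, and 2 intervals, of Pax6 and Tfap2b, lie wholly above 0.

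The highest values of the 14 probe sets came mostly from 8-month retinas 1 and 2. With 11 of the 14 differences above 0, highest values fall mostly at 8 months, and probe sets of 1 gene are not independent. The share of the variation that single retinas set was not tested. Among the 14 probe sets, 8-month retina 2 gave the highest value in 8, and 8-month retina 1 in 4. Over all tested probe sets these retinas gave the highest value in 10.8% and 13.1%. The lowest value came from 3-month retina 2 in 4 and from 3-month retina 3 in 4, against 13.0% and 18.0% over all probe sets. All younger retinas were left eyes, and 8-month retinas 2 and 3 were right eyes. With eye side as a covariate the difference was 0.27 for Pax6 1419271_at and 0.17 for Tfap2b 1435670_at. Since 8-month retina 1 was the only older left eye, these set that retina's value against the mean of the younger ones. They therefore rest on 1 older retina, 8-month retina 1, in which both probe sets stood above all 3 younger left retinas. That retina was also high in lens genes, as given below, and the part of eye side was not tested further.

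Whole-series checks touched these results in a few places. Correlations between arrays over tested probe sets lay between 0.985 and 0.994, and between 46.1% and 46.6% of probe sets reached 4 in each array. The log2 gap between 3' and 5' control probe sets of Gapdh, a sign of RNA integrity or of amplification, was 0.707 to 0.751 at 3 months and 0.755 to 0.811 at 8 months, without overlap, while that of actin overlapped. Its part in the small differences above was not tested. Rod markers were high in every retina, Nrl for one at 12.15 to 12.37.

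Genes of the lens, a tissue that expresses Pax6 and Prox1, varied strongly between single retinas. The lens fibre list had 10 measured genes of 17 in the annotation, and 2 retinas stood apart in it. The list's mean log2 value reached 9.68 in the third 3-month retina and 8.53 in the first 8-month retina, and lay between 4.05 and 5.92 in the rest. All 10 genes had a difference below 0, with a median of -0.86, and 0 passed. The lens-rich retinas set that value: the median was 0.437 without the younger one and -2.373 without the older one. Summed on the linear scale, the list ran from 267 to 32811 at 3 months and from 178 to 17665 at 8 months. Prox1 1437894_at read 10.09 and 10.29 in those same lens-rich retinas and 9.83 to 10.15 in the others, so its lens-rich values lay partly inside the range of the rest. Pax6 1419271_at was lowest of all in the lens-rich younger retina, at 9.39, and highest in the lens-rich older one, at 9.67. Without both lens-rich retinas the Pax6 difference was 0.20 and that of Tfap2b 1435670_at was 0.27. Those of the 2 Prox1 probe sets were 0.08 and 0.12, the second down from 0.38. Onecut2 1460044_at had its highest value, 4.87, in the lens-rich younger retina and its lowest, 4.25, in the lens-rich older one, and without both its difference went from -0.27 to -0.098. The part of lens RNA in these differences was not tested beyond that.

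The other neighbouring tissues were read in the same way. Pigment epithelium, ciliary body and iris markers had 6 of 12 genes measured, 3 higher and 3 lower with a median difference of 0.03, and summed linear levels of 214 to 1736 at 3 months and 298 to 1016 at 8 months. Their highest means, 6.72 and 6.27, were again in the lens-rich retinas, but 8-month retina 2, which was not lens-rich, reached 6.07. The highest older sum, 1016, was of 8-month retina 2, against 967 in the lens-rich older one. Cornea and conjunctiva markers, tissues where Pax6 and Tfap2a are active, had 2 of 9 genes measured, both higher with a median of 0.36, and sums of 35 to 135 and 36 to 295. Without 8-month retina 1 the median was -0.404, the detoxifying enzyme gene Aldh3a1 reading 8.03 in that retina and 3.90 and 4.03 in the other older ones. Aldh3a1 also read 6.81 in the lens-rich younger retina, against 3.89 and 3.95 in the other younger ones. The corneal keratin Krt12 was not above the filter, at 2.32 to 3.69. Of the lymphatic and blood endothelial markers 5 of 9 were measured, 1 higher and 4 lower with a median of -0.44. The lymphatic hyaluronan receptor gene Lyve1 read 6.25, 5.99 and 6.14 at 3 months and 5.24, 5.79 and 5.38 at 8 months, lower without overlap by a difference of -0.66 (limma, unadjusted p = 0.00378, adjusted p = 0.22). The tight junction gene Cldn5 was also lower without overlap, at -0.44 (limma, unadjusted p = 0.0153, adjusted p = 0.269). The summed levels of the list, 1830 to 2294 at 3 months and 2366 to 2553 at 8 months, are nearly all Pdpn, a membrane glycoprotein gene at 10.63 to 11.22 and the 1 higher gene, at 0.26. The lymphatic receptor gene Flt4 stayed near 4, at 3.75 to 4.17. In these 3 lists 0 genes passed. The part of these tissues in the differences beyond the values given was not tested.

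**Figure D4:**
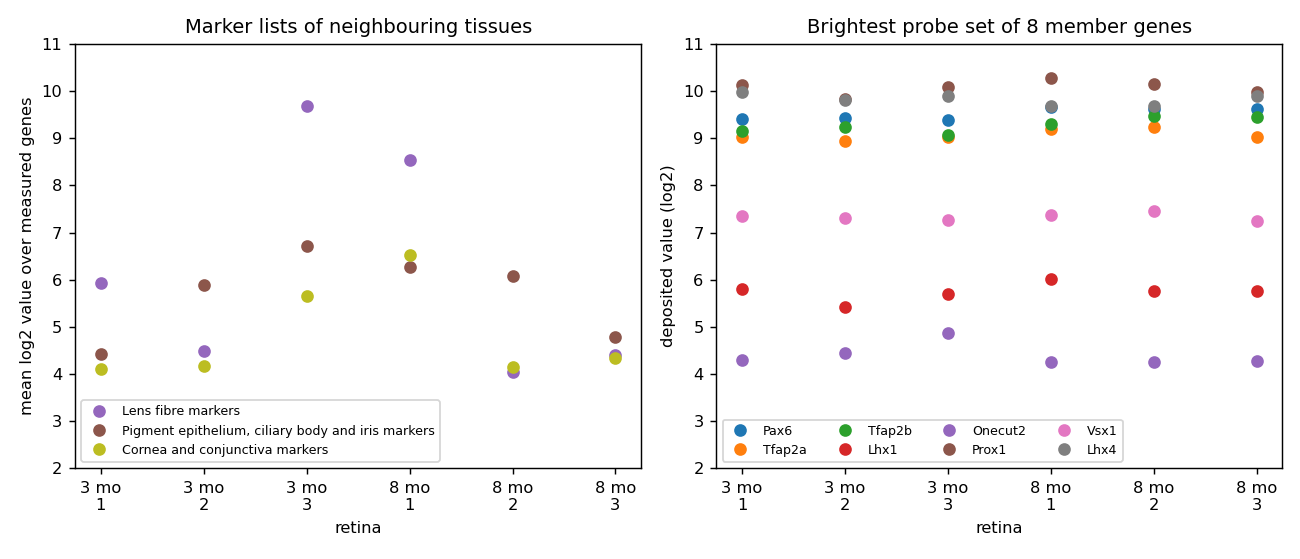
Mean log2 value of measured marker genes of lens, pigmented tissues and cornea in each retina (left), and the brightest tested probe set of 8 of the genes (right). Lens markers reach 9.68 in one younger and 8.53 in one older retina, whereas the 8 genes stay within 0.62 of their own lowest value in all retinas.

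Markers of amacrine and horizontal cells were read above the filter, though not every marker of a type or subtype was. Among amacrine genes, the GABA-synthesising enzyme gene Gad1 read 11.14 to 11.40 and the glycine transporter gene Slc6a9 11.10 to 11.36 over the 6 retinas. The cholinergic gene Chat stayed at 2.53 to 2.70 and the dopaminergic gene Th at 2.47 to 2.74, near the floor. Of the 7 horizontal cell markers in the annotation 4 were measured, among them the calcium-binding protein gene Calb1 at 9.97 to 10.39. The rest were near the floor, like Onecut1. They were the gap junction gene Gja10 at 2.78 to 2.81, the further cut-homeodomain gene Onecut3 at 2.53 to 2.55, and Tmem72 at 2.44 to 2.64.

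Other genes of the same cells were followed through lists. In each list a gene is represented by its brightest tested probe set, and 0 genes passed in either direction (limma, adjusted over all probe sets). For comparison, the median over all 11219 genes was -0.06, with 36.5% of genes above 0, and 3.58% higher and 11.5% lower at an unadjusted limma p under 0.05. Of 22 measured amacrine transcription factor genes, 11 were higher and 11 lower, with a median of 0.004 and unadjusted p under 0.05 for 1 higher and 0 lower. After median centring 18 of the 22 were higher, with a median of 0.09. Neurod4, a proneural factor, had the smallest p in that list, at 12.23, 12.54 and 12.12 at 3 months and 12.59, 12.58 and 12.70 at 8 months, a difference of 0.32 (limma adjusted p = 0.305). Its probe set carries the suffix of probes that can match other transcripts. The orphan receptor gene Rorb differed by 0.55, with overlapping ages, and Lmo4, a LIM-only cofactor gene, by -0.32.

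Of 14 measured amacrine marker genes, 4 were higher and 10 lower, 8 and 6 after median centring, with a median of -0.07 and unadjusted p under 0.05 for 0 higher and 2 lower. Those were the neuropeptide gene Vip, which read 7.17, 6.45 and 6.55 at 3 months and 6.17, 6.20 and 6.33 at 8 months, and Megf10, a receptor gene for mosaic spacing, at -0.30. The vesicular GABA transporter gene Slc32a1 differed by -0.23 and Gad1 by 0.13. All 4 measured horizontal cell markers were lower as deposited, with a median of -0.07, and 2 of the 4 after cyclic loess or median centring. They were Calb1, Septin4, the bicarbonate exchanger gene Slc4a3 and Megf11, whose differences were -0.03, -0.03, -0.12 and -0.11, with overlapping ages in each.

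In the bipolar cell lists 0 genes passed. Of 12 measured bipolar transcription factor genes 7 were higher, 10 after median centring, with a median of 0.08, or 0.162 after it, 1 of them, Neurod4, at an unadjusted limma p under 0.05. Neurod4 is read here by the same probe set as in the amacrine list. Of 15 bipolar marker genes 9 were higher, 12 after median centring, with a median of 0.03, or 0.109 after it, and 0 at that p in either direction. Of 17 Müller glia genes 12 were higher, 15 after median centring, with a median of 0.06, or 0.145 after it, led by the water channel gene Aqp4 at 0.31 (limma adjusted p = 0.273). Of 14 ganglion cell genes 11 were lower, 8 after median centring, with a median of -0.11, 2 at an unadjusted limma p under 0.05. Pax6 is also expressed by ganglion cells. Rod markers were lower in 7 of 8, 5 after median centring, with a median of -0.18, and 3 had an unadjusted limma p under 0.05.

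Relatives of the 9 genes were set beside them. Of the 25 further family members in the annotation, 12 were measured, 5 higher and 7 lower, 8 and 4 after median centring, with a median of -0.06 and none at an unadjusted limma p under 0.05. Tfap2c, the AP-2 gamma gene, which is also an amacrine cell factor, read 10.56, 10.39 and 10.50 at 3 months and 10.16, 10.53 and 10.52 at 8 months. Its difference was -0.08 ± 0.12 (SE) as deposited and -0.001 after median centring, and its contrast with Tfap2a and Tfap2b was not tested. Tfap2d and Tfap2e had differences of 0.36 ± 0.20 and 0.23 ± 0.13 (SE) and overlapping ages. Lower without overlap were 3 of the 12, against 16.9% of all genes. They were Cux1, a cut-homeodomain gene, at -0.17, Isl2, a LIM-homeodomain gene of ganglion cells, at -0.14, and Lhx2 at -0.07. After median centring Cux1 was at -0.085 and Isl2 at -0.059.

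Regulators of retinal development had 17 of 25 genes measured, 8 higher and 9 lower, with a median of -0.04 as deposited and 0.045 after quantile normalization. None was higher and 3 were lower at an unadjusted limma p under 0.05. They were Sox11 at -0.53, Prdm1 at -0.46 and Sox4 at -0.28, all factors of developing neurons. Ptf1a and Foxn4, which start the amacrine and horizontal fates in the embryo, stayed at 2.45 to 2.58 and 2.64 to 3.03.

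The genes most like each of the 8 tested genes in their course over the 6 retinas were sought by the root-mean-square difference of log2 values centred on each gene's mean, among 11218 genes. For Pax6 they were Cabp7, Fam199x and Numa1, at 0.036, 0.037 and 0.037, against a spread of 0.115 for Pax6 itself. For Tfap2b they were Ammecr1l, Rab1a and Nudt6, at 0.032, 0.042 and 0.043, and for Tfap2a Tnrc6a, Ccdc137 and Plch1, at 0.025 to 0.029. For Prox1 they were Ccdc88a, Larp4b and Arhgap10, at 0.028 to 0.038. Over all 24 such genes the values ran from 0.02 to 0.059. No one of the 9 genes was among the 3 nearest of another. With 6 retinas and so many genes, near matches of this size describe these arrays only.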

How the data were processed

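The deposited values were log2 signals per probe set, and the submitters' processing notes name GCRMA 1.1.0 and R 1.9.0. GCRMA corrects background from probe sequence and compresses weak signals, which can shrink the differences of dim genes. Its options are not given in the sources used here, nor are scan dates. After 64 control probe sets were left out, 20973 of 45037 probe sets (46.6%) passed the filter. limma 3.58.1 (lmFit, eBayes; R 4.3.3) compared the ages without covariates, two-sided, with Benjamini-Hochberg adjustment over all tested probe sets and a threshold of 0.05. Only the main model was tried on simulated data, with known differences added, and the alternatives were not. Replicates are separate animals, and the number of arrays limits the precision. With 3 against 3, no exact permutation p can fall below 0.1. Gene names came from the platform annotation of 2016, in which 34945 probe sets had 1 gene, 932 several and 9160 none. Of the symbols on 14 gene lists, 19 were not in it. All members were named, and at most 4 genes of smallest p per list, apart from defining markers and family members named for their level. Genes called at the unadjusted p, Ptf1a, Foxn4, Tfap2c and the subtype markers were singled out after their values were seen. The members and lists were chosen with earlier results of these data known. The 15 alternatives changed the filter, scaling, covariates, variance model or retinas used. Same-numbered retinas of the 2 ages did not deviate together (correlations of -0.14, 0.06 and -0.28), so the numbers were not taken as pairs.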

Additional observations from a re-analysis of the deposited data

How the results depend on the processing

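In 199 of 206 recomputed differences of single probe sets of the group, the direction did not turn and the side of the threshold held. Among these was Vsx1 1450487_at without 8-month retina 2, whose difference rounded to 0. After adjustment 0 passed under any of the 15 alternatives (limma). The 7 that turned belonged to 2 probe sets near 0. Pax6 1452526_a_at, at -0.02, was 0.062 after quantile normalization, 0.051 after cyclic loess and 0.067 after median centring. Leaving out 1 retina gave it -0.097 to 0.043, above 0 without 3-month retina 1, 8-month retina 1 or 8-month retina 3. Tfap2a 1421995_at, at 0.08, ranged from -0.032 without 8-month retina 2 to 0.207 without 8-month retina 3. Pax6 1419271_at ranged from 0.20 to 0.31 and Tfap2b 1435670_at from 0.17 to 0.35. The number of the group's probe sets with an unadjusted limma p under 0.05, 2 in the main model, was 4 with no filter, where 24 were tested, 6 after median centring, and 1 with eye side as a covariate or without both lens-rich retinas. With eye side that 1 was Prox1 1457432_at, at 0.698, and both of the main model dropped out. Without the lens-rich retinas it was Tfap2b 1435670_at. Leaving out 1 retina gave 1 to 5, the 5 without 3-month retina 1. It was 1 without 3-month retina 3 and without each of the older retinas in turn. The eye-side differences set 1 older retina, the lens-rich 8-month retina 1, against the younger ones. Without both lens-rich retinas the difference of Prox1 1457432_at was 0.117. Over the whole array, the 1 probe set passing after adjustment became 2 with the filter at 6 and under each of the 3 other scalings. It became 0 with no filter, with eye side, with the replicate block, without both lens-rich retinas and without any single retina, and from 1567 to 4159 probe sets had an unadjusted limma p under 0.05 in those settings. The split at that p was 971 higher and 2155 lower as deposited. Quantile normalization gave 1388 and 1403, cyclic loess 1442 and 1372, and centring on the median of tested probe sets 2141 and 1000. With the replicate number as a block, 0 probe sets of the group passed after adjustment, as without it. Those with an unadjusted limma p under 0.05 were again 2, but not the same 2. Pax6 1419271_at dropped out (limma, unadjusted p = 0.0517, adjusted p = 0.387). Prox1 1457432_at came in (limma, unadjusted p = 0.00862, adjusted p = 0.336) beside Tfap2b 1435670_at. The causes of these shifts were not tested. Depth has no counterpart here: signal near the floor limits Onecut1 and the other probe sets under the filter.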
